A study of Homo sapiens with 3 samples.

Results

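Chromosome 19 held 578 of the 14365 codanin-1 peaks and 259 of the 5164 GATA1 peaks that were called by chromatin immunoprecipitation and sequencing (ChIP-seq) in K562 cells, a human erythroleukaemia line. Members were all rows of the deposited lists on that chromosome, in hg19 coordinates, with no filter on width or enrichment. By the midpoint of each peak, 95 of the codanin-1 peaks and 76 of the GATA1 peaks lay in 5 stretches of zinc-finger gene clusters. The stretches run from 19.5 to 24.5 Mb (stretch 1), 36.5 to 38.5 Mb (stretch 2), 43.9 to 45 Mb (stretch 3), 52.0 to 54.0 Mb (stretch 4) and 56.5 to 59.1 Mb (stretch 5), 12.7 Mb in all. The other 483 codanin-1 and 183 GATA1 peaks lay in the remaining 46.4 Mb, up to the last peak of either list.

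The series compares immunoprecipitation from K562 cells with an antibody to residues 123 to 142 of codanin-1, with an antibody to GATA1 (N6), and with non-specific rabbit IgG. Each antibody is represented by 1 library from cells fixed in formaldehyde, and nothing distinguishes the cells of the libraries except the antibody. All libraries come from the same established line, so the lists describe that line and its rearranged genome. Peak lists of the codanin-1 and GATA1 libraries were compared. With 1 library per antibody no value has a replicate error, intervals cover counting error only, and each test compares these 2 lists rather than conditions. A list of the IgG library was not analysed here.

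Chromosome 19 is known for its density of genes and for clusters of C2H2 zinc-finger genes, which arose largely by tandem duplication. Many of their products carry a KRAB domain, which recruits the corepressor TRIM28 and the histone methyltransferase SETDB1 to transposable elements, and the clusters themselves often carry repressive trimethylation of histone H3 lysine 9. Codanin-1, the product of CDAN1, binds the histone chaperone ASF1, and GATA1 is the transcription factor that directs erythroid gene expression. The label of the chromosome could be checked only by symbols, in a RefSeq gene table of another build (GRCh38.p14). There it carries 1451 of 20052 protein-coding genes (7.24%) on 1.91% of the summed extent of the nuclear chromosomes in the peak lists. Zinc-finger symbols (ZNF, ZFP, ZSCAN, ZKSCAN or ZIK) belong to 263 of those 1451 genes, against 39 on chromosome 7, the next in order. In gene order, 213 of the 263 stand in rows of at least 5 neighbours, of which the longest has 27. Because the builds differ, peaks are given by position without gene names, and the stretches were taken by position.

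The lists differed in how they filled the zinc-finger stretches. Codanin-1 peaks were sparser there than on the rest of the chromosome, with 7.48 peaks per Mb (95% exact Poisson interval 6.05 to 9.14) against 10.4 (9.50 to 11.4). GATA1 peaks were denser there, with 5.98 per Mb (4.71 to 7.49) against 3.94 (3.39 to 4.56). The ratio of stretches to rest was 0.72 for codanin-1 (exact interval 0.571 to 0.898, two-sided exact binomial p = 0.0028, adjusted p = 0.0031 over the 5 stretch comparisons) and 1.52 for GATA1 (1.15 to 1.99, exact p = 0.0031, adjusted p = 0.0031). The stretches held 16.4% of the codanin-1 peaks and 29.3% of the GATA1 peaks of the chromosome, an odds ratio of 0.47 (0.330 to 0.681, Fisher's exact test, two-sided, p = 2.8e-05, adjusted p = 4.7e-05).

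Neither ratio described the stretches as a whole. Stretch 2 held 35 codanin-1 and 60 GATA1 peaks, or 17.5 and 30.0 per Mb, whereas stretch 1, the longest, held 13 and 2, or 2.60 and 0.400 per Mb. Stretch 3 held 17 codanin-1 and 6 GATA1 peaks (15.5 and 5.45 per Mb). Stretch 4 held 14 and 2 (7 and 1 per Mb), and stretch 5 held 16 and 6 (6.15 and 2.31 per Mb). GATA1 peaks therefore outnumbered codanin-1 peaks in stretch 2 and were fewer in the 4 others. Without stretch 2 the GATA1 ratio turned to 0.38 (0.212 to 0.633), and without stretch 1 the codanin-1 ratio was 1.023 (0.800 to 1.30).

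**Figure D1:**
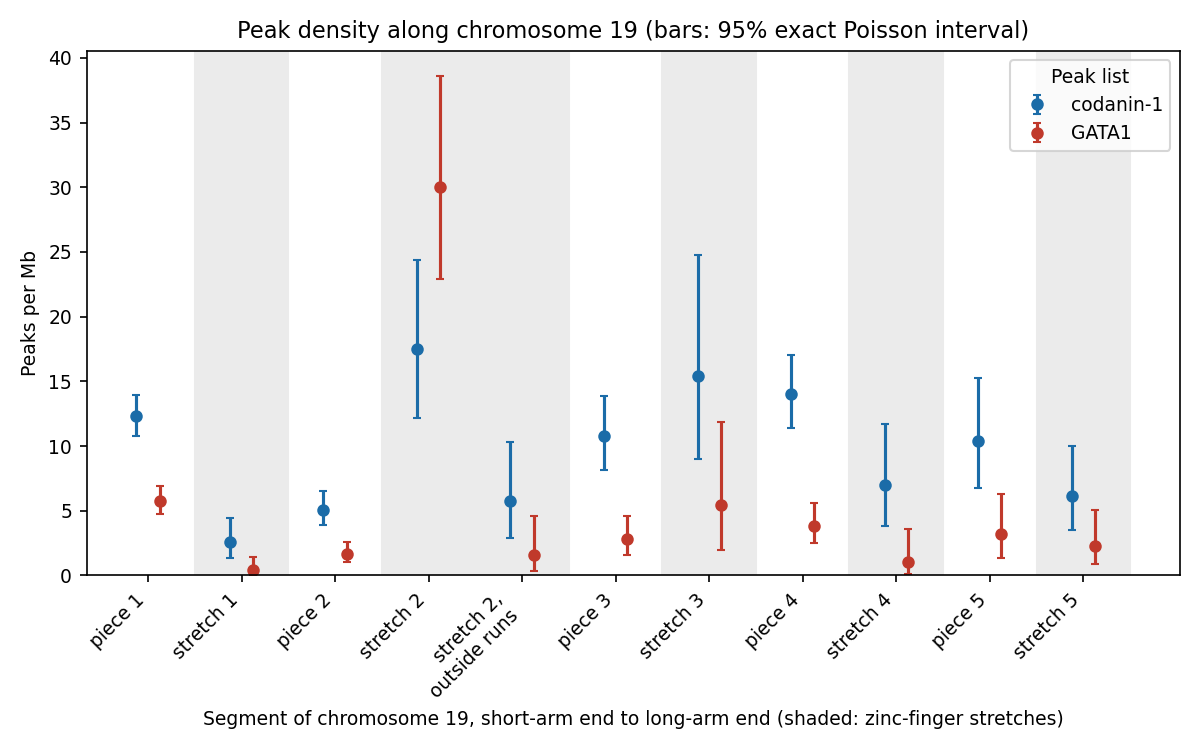
Peaks per Mb (y axis) of each list in consecutive segments of chromosome 19 from the short-arm end to the long-arm end (x axis), with 95% exact Poisson intervals as bars and the zinc-finger stretches shaded. GATA1 reaches 30.0 per Mb in stretch 2 and 1.57 per Mb in that stretch once its 2 runs of peaks are left out, and of the segments drawn both lists are sparsest in stretch 1. The short end beyond stretch 5 is not drawn.

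The pieces between the stretches varied as well. The 19.5 Mb of the short arm before stretch 1 held 240 codanin-1 peaks (12.3 per Mb) and 112 GATA1 peaks (5.74 per Mb). The 12.0 Mb between stretches 1 and 2, which include the centromere, held 61 and 20 (5.08 and 1.67 per Mb). Between stretches 2 and 3 there were 58 and 15 (10.7 and 2.78 per Mb), between 3 and 4 there were 98 and 27 (14 and 3.86 per Mb), and between 4 and 5 there were 26 and 8 (10.4 and 3.20 per Mb). Beyond stretch 5 lay 1 GATA1 peak and 0 codanin-1 peaks, over 0.0183 Mb. Among the 5 longer pieces outside the stretches, codanin-1 peaks were thus densest between stretches 3 and 4 and GATA1 peaks on the short arm, and both were sparsest in the piece with the centromere. The longest interval without a peak of either list, 3.55 Mb from 24184997 to 27731988, spans the end of stretch 1 and the centromere. Leaving its part outside the stretch out of the length changed neither direction.

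Most of the stretch 2 peaks lay in 2 short runs. A run is defined here as a series of peaks of either list with no gap above 10 kb that holds at least 5 peaks of each list, a definition made after seeing the data. Run 1, at chromosome 19 from 36759375 to 36810311 (50.9 kb), held 15 codanin-1 and 36 GATA1 peaks. Run 2, from 37760635 to 37794358 (33.7 kb), held 9 codanin-1 and 21 GATA1 peaks. Neither a peak list of the IgG library nor sequence of build hg19 was used, so background signal and repeat content in the runs were not tested, and the peaks there are given as called, not as binding sites. The runs lie 950.3 kb apart and make up 4.23% of stretch 2 and 0.143% of the chromosome.

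These 84.7 kb carried a large part of the GATA1 list of the chromosome. They held 57 of its 259 GATA1 peaks (22%), 75% of those in the stretches and 95% of those in stretch 2, against 24 of 578 codanin-1 peaks (4.15%). Over the whole lists such runs held 9.73% of the codanin-1 and 29.4% of the GATA1 list. Chromosome 22 alone supplied 866 of the 1398 codanin-1 and 824 of the 1518 GATA1 peaks in runs. Without it the shares were 4.04% and 16.5%, so chromosome 19 lay below the whole lists in both shares but not below the lists without chromosome 22. The genome had 73 runs on 13 chromosomes, 34 of them on chromosome 22. Run 1 stood at rank 9 of the 73 by its number of GATA1 peaks and at rank 30 by its number of codanin-1 peaks, and run 2 at ranks 24 and 44.

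Within the runs the GATA1 peaks lay within a few kb of each other. In run 1 the midpoints of neighbouring GATA1 peaks were 0.506 to 2.22 kb apart (median 1.07 kb), and GATA1 peaks covered 44.5% of the run. Codanin-1 midpoints there were 1.06 to 12.4 kb apart (median 2.37 kb), with 20.0% of the run covered. In run 2 the median spacing was 1.44 kb for GATA1 and 2.54 kb for codanin-1, with 19.9% and 12.8% covered. Bases under peaks of both lists made up 5827 bp of run 1, which is 57.3% of the codanin-1 and 25.7% of the GATA1 length there. In run 2 they made up 1821 bp, or 42.3% and 27.2%. Codanin-1 peaks were thus fewer than GATA1 peaks in both runs. They were also wider by median, at 481 bp against 400 bp in run 1 and 492 bp against 256 bp in run 2. That difference in width was not particular to the runs, since the medians over the whole chromosome were 232.5 and 156 bp.

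**Figure D2:**
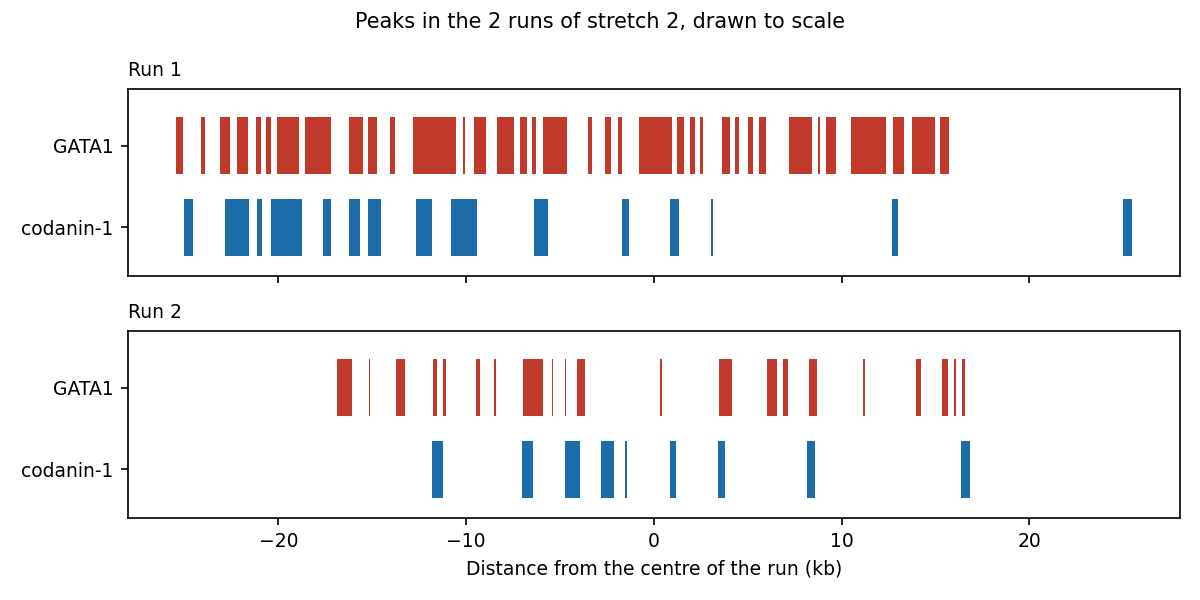
Each bar is 1 peak of the GATA1 list (upper row) or codanin-1 list (lower row) in run 1 (upper panel) and run 2 (lower panel), drawn to scale against the distance in kb from the centre of the run (x axis). The median spacing of GATA1 midpoints is 1.07 kb in run 1 and 1.44 kb in run 2, and codanin-1 peaks are fewer in both.

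With both runs left out, both lists were sparser in the zinc-finger stretches as a whole than in the rest. Both runs are dense and lie in the stretches, so leaving them out could only lower the ratios to the rest. A run needs peaks of both lists, so the 8 GATA1 peaks from 27000001 to 28000000, without codanin-1 peaks, stayed in the rest. The remaining 71 codanin-1 peaks gave 5.63 per Mb (4.396 to 7.10) and a ratio to the rest of 0.54 (0.416 to 0.695). The remaining 19 GATA1 peaks gave 1.51 per Mb (0.907 to 2.35) and a ratio of 0.38 (0.225 to 0.614). The difference between the lists then ended: 12.8% of codanin-1 and 9.41% of GATA1 peaks lay in the stretches, with an odds ratio of 1.42 (0.816 to 2.56, Fisher's exact test, p = 0.25). Without stretch 1 as well the ratios were 0.73 (0.548 to 0.963) and 0.57 (0.323 to 0.932). Stretch 3, which holds no run, was an exception, with 15.5 codanin-1 (9.003 to 24.7) and 5.45 GATA1 peaks per Mb (2.00 to 11.9) against 10.4 and 3.94 in the rest. Both of its intervals include the density of the rest.

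Peaks in the stretches were wider than on the rest of the chromosome by median. The runs made up most of that difference for GATA1, and without them its direction turned for codanin-1. The median width of codanin-1 peaks was 275 bp in the stretches (quartiles 114.5 to 437 bp) and 225 bp in the rest (127.5 to 359 bp). For GATA1 it was 266 bp (164.8 to 524.8 bp) and 128 bp (70.5 to 220 bp). In the runs the codanin-1 median was 486.5 bp and the GATA1 median 340 bp, and in the stretches outside the runs they were 191 and 137 bp. Outside the runs, then, codanin-1 peaks of the stretches were narrower by median than those of the rest, and GATA1 peaks differed by 9 bp. These widths were not tested, since peaks are not replicates and the deposited lists give no depth.

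The narrowest and the widest peaks also fell unevenly. At the smallest width of its list, 101 bp, stood 19 of 95 codanin-1 peaks in the stretches (20.0%) and 79 of 483 in the rest (16.4%), and 18 of the 19 lay outside the runs. At the smallest GATA1 width, 60 bp, stood 8 of 76 (10.5%) and 33 of 183 (18.0%). All 3 codanin-1 peaks and all 9 GATA1 peaks of 1 kb or more on the chromosome lay in the runs. The widest codanin-1 peaks were at 36764442 to 36766107 (1666 bp, 3.41-fold over the background of the peak caller), 36774036 to 36775427 (1392 bp, 3.61-fold) and 36762013 to 36763269 (1257 bp, 3.20-fold), and each overlapped 2 or 3 GATA1 peaks. The next was outside the stretches at 35514500 to 35515407 (908 bp, 4.00-fold), 81462 bp from the nearest GATA1 peak, followed by one in run 1 at 36772173 to 36773021 (849 bp, 3.597-fold). The 5 widest GATA1 peaks were all in run 1, led by 36771979 to 36774302 (2324 bp, 4.14-fold), 36795339 to 36797196 (1858 bp, 3.91-fold) and 36784030 to 36785787 (1758 bp, 4.14-fold).

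Over the stretches as a whole, enrichment ran the other way from width, and outside the runs it did not. The authors' fold enrichment had a median of 3.88 for codanin-1 peaks in the stretches and 4.00 in the rest, and of 4.12 and 4.32 for GATA1 peaks. In the runs it was 3.52 for codanin-1 and 4.03 for GATA1, against 3.92 and 4.36 in the stretches outside the runs. Outside the runs, then, both width and fold of the stretches were below the rest for codanin-1 and above it for GATA1. No peak of either list in the runs reached a fold of 5, which 27 codanin-1 (4.67%) and 15 GATA1 peaks (5.79%) of the chromosome did. With 24 codanin-1 and 57 GATA1 peaks in the runs, shares that small would leave few there. The highest in the runs were at rank 164 of 578 for codanin-1 and at rank 30 of 259 for GATA1. The median −log10 q, in contrast, differed little: 1.51 in the stretches and 1.57 in the rest for codanin-1, and 1.65 and 1.61 for GATA1.

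**Figure D3:**
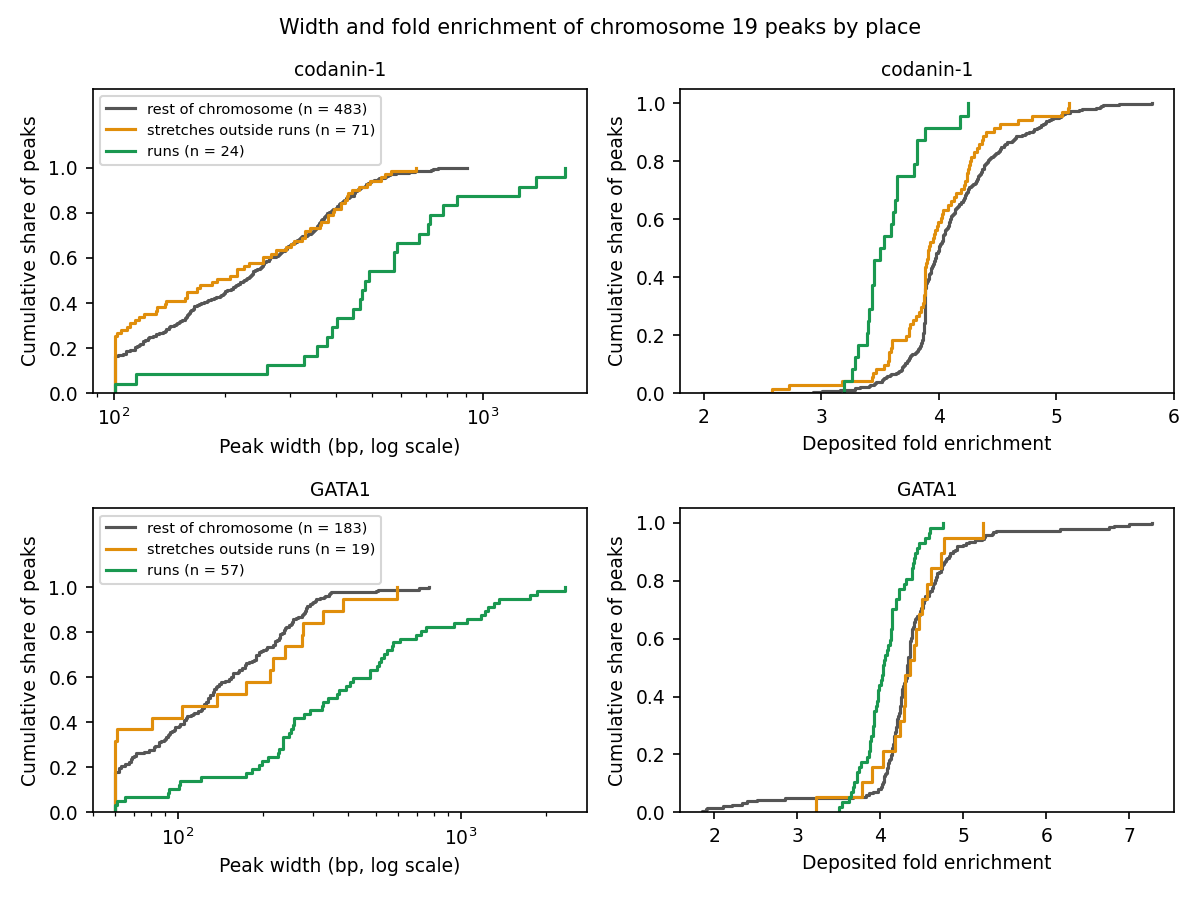
Cumulative share of chromosome 19 peaks (y axes) by width in bp on a log scale (left) and by deposited fold enrichment (right) for codanin-1 (upper panels) and GATA1 (lower panels), split into the runs, the stretches outside the runs and the rest of the chromosome. Peaks in the runs are the widest, with medians of 486.5 and 340 bp, and have the lowest median fold in both lists, 3.52 and 4.03.

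To ask whether the lists shared sites on this chromosome, peaks were called overlapping when they had at least 1 bp in common. Such a shared site was found for 21 of 95 codanin-1 peaks of the stretches (22.1%, 95% exact binomial interval 14.2 to 31.8), against 8 of the 483 of the rest (1.66%, 0.718 to 3.24). The share over the whole codanin-1 list was 6.60%. The odds ratio was 16.7 (6.81 to 45.3, Fisher's exact test, two-sided, p = 6.5e-12, adjusted p = 3.3e-11). Of the GATA1 peaks, 28 of 76 overlapped in the stretches (36.8%, 26.1 to 48.7) and 8 of 183 in the rest (4.37%, 1.91 to 8.43), against 20.2% over the whole list, with an odds ratio of 12.6 (5.18 to 34.1, Fisher's exact test, p = 9.1e-11, adjusted p = 2.3e-10). In both lists the stretches thus lay above the share of the whole list and the rest of the chromosome below it. The whole lists include runs, whereas the rest of chromosome 19 holds none. Outside runs the share over the genome was 2.77% for codanin-1 and 10.15% for GATA1, and the rest lay below these as well.

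The runs again supplied most of these sites, as 17 of the 29 overlapping codanin-1 peaks (58.6%) and 24 of the 36 overlapping GATA1 peaks (66.7%). Within the runs 17 of 24 codanin-1 peaks overlapped (70.8%, 48.9 to 87.4), as did 24 of 57 GATA1 peaks (42.1%, 29.1 to 55.9). A run requires peaks of both lists close together, so a high share there is partly set by its definition. Stretch 3 held 3 of the other overlapping codanin-1 peaks and stretch 5 held 1. In stretches 1 and 4, 0 of 13 and 0 of 14 overlapped, and the exact upper bounds of 24.7% and 23.2% leave room for shares above that of the whole list. Without the runs the codanin-1 odds ratio was 3.53 (0.758 to 13.6, Fisher's exact test, p = 0.055) from 4 of 71 peaks, and the GATA1 odds ratio was 5.74 (1.13 to 24.7, Fisher's exact test, p = 0.017) from 4 of 19. Neither p-value was adjusted. Of those 4 GATA1 peaks 3 lay near each other in stretch 3, between 44914408 and 44962617, and neighbouring peaks are not independent.

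The distance to the nearest peak of the other list was short in the runs, which is largely set by their definition. A run joins peaks of either list at gaps of up to 10 kb and needs peaks of both. For codanin-1 this distance did not order the remaining stretches and the rest as overlap did. Codanin-1 peaks of the rest lay a median of 80.2 kb from a GATA1 peak, those of the stretches outside the runs 162 kb, and those of the runs 0 kb. Within 1 kb of a GATA1 peak lay 14 of 483, 6 of 71 and 22 of 24 of them. GATA1 peaks of the rest lay a median of 19.2 kb from a codanin-1 peak, those of the stretches outside the runs 13.3 kb, and those of the runs 0.366 kb. The GATA1 list is the shorter, so the 2 directions are not comparable.

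**Figure D4:**
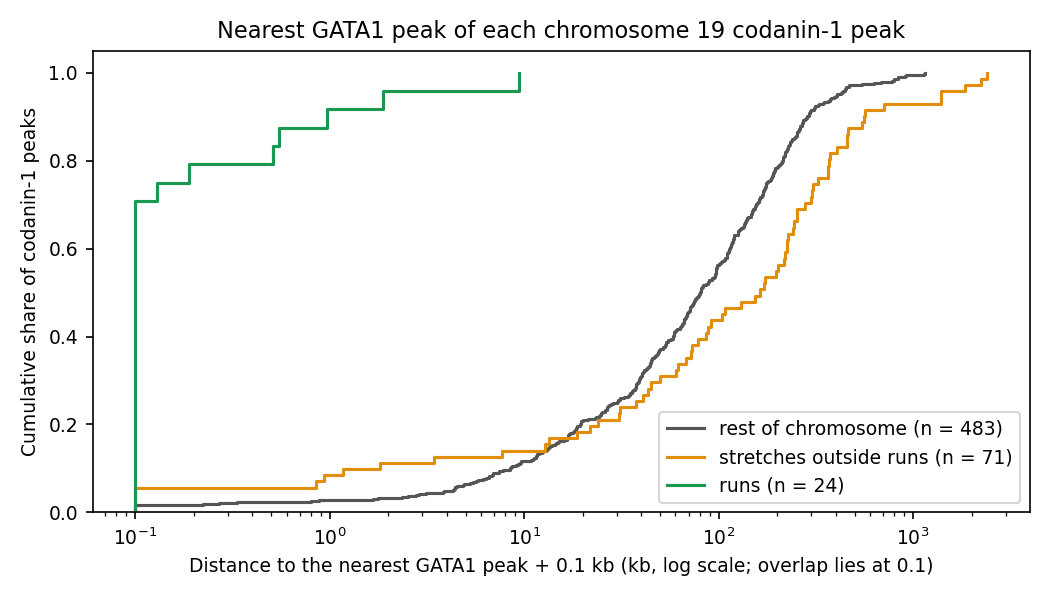
Cumulative share of codanin-1 peaks of chromosome 19 (y axis) by distance to the nearest GATA1 peak in kb, plotted on a log scale after adding 0.1 kb (x axis), for the runs, the stretches outside the runs and the rest. Of the peaks in the runs 70.8% overlap a GATA1 peak and stand at the left edge, whereas the medians elsewhere are 162 kb and 80.2 kb. Short distances in the runs are largely set by the definition of a run.

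Outside the runs 12 pairs of sites were shared, 8 of them in the rest of the chromosome. The overlapping codanin-1 peak with the highest enrichment was at 10561266 to 10561528 (5.02-fold), and shared 60 bp with a GATA1 peak of 4.13-fold. At 3649310 to 3649834 the codanin-1 peak (4.87-fold) contained the whole of a GATA1 peak of 511 bp (5.35-fold), which was also among the 10 GATA1 peaks of highest fold. At 56117393 to 56117767 (4.50-fold) 227 bp were shared with a GATA1 peak of 4.06-fold. These 3 were picked by codanin-1 fold, so their place above the median codanin-1 fold of the chromosome, 3.97, follows from that choice. By GATA1 fold 1 of the 3 lay above the median, 4.27. Over all 12 overlapping peaks outside the runs the median fold was 3.93 for codanin-1 and 4.23 for GATA1. The medians of the non-overlapping peaks outside the runs were higher, 4.00 and 4.33.

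The remaining 5 sites of the rest shared 38 to 265 bp. Those at 16439176 to 16439719 and 30392661 to 30392925 had 265 and 152 bp in common, with folds of 4.12 and 3.91 for codanin-1 and 4.44 and 5.04 for GATA1. Those at 46406040 to 46406592 and 48866956 to 48867335 shared 38 and 93 bp. The site at 36066472 to 36066674 had the lowest fold of any codanin-1 peak of the chromosome, 1.99, and a GATA1 fold of 2.85, with a −log10 q of 2.07 and 5.87.

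In the stretches outside the runs the shared sites were 3 at the distal end of stretch 3 and 1 in stretch 5. At 44914582 to 44914994 the codanin-1 peak (3.57-fold) lay wholly within a GATA1 peak of 4.56-fold, and at 44915612 to 44915725 a codanin-1 peak of 2.59-fold, at rank 5 of the chromosome by −log10 q (3.15), shared 96 bp with a GATA1 peak of 3.90-fold. At 44962088 to 44962573 (3.18-fold) 281 bp were shared with a GATA1 peak of 3.77-fold. The site of stretch 5, at 57751559 to 57751743, had folds of 3.96 and 4.36 with 48 bp shared. In run 2 the shared codanin-1 peak of highest fold was at 37765677 to 37766251 (4.25-fold, with GATA1 at up to 4.13), and in run 1 it was at 36797500 to 36797854 (3.82-fold, with GATA1 at 4.01).

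The 10 peaks of highest enrichment in each list lay outside the stretches. Those of codanin-1 were 101 to 125 bp wide, and 0 of the 10 overlapped a GATA1 peak. The stretches held 16.4% of the codanin-1 peaks, and 1.66% of those in the rest overlapped, so 0 of 10 is near that share. The GATA1 peaks nearest to the 10 were 9.03 kb away or more. The 10 were led by 17622351 to 17622454 (5.81-fold, −log10 q of 3.57), 42449510 to 42449633 (5.54-fold) and 30362189 to 30362310 (5.43-fold). The remaining 7 had folds of 5.29 to 5.40, and the 11th peak 5.22. Inside the stretches the highest were at 59021293 to 59021409 (5.11-fold), 57840219 to 57840320 (5.10-fold) and 53238290 to 53238390 (5.05-fold), none of which overlapped a GATA1 peak.

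The 10 GATA1 peaks of highest fold were also all outside the stretches, and 1 of them overlapped a codanin-1 peak. The stretches held 29.3% of the GATA1 peaks, and 4.37% of those in the rest overlapped, so 1 of 10 does not set these peaks apart. The first 5 stood apart in fold, at 4957451 to 4957517 (7.27-fold), 42887801 to 42887862 (7.002-fold), 1156905 to 1156966 (6.81-fold), 16044725 to 16044829 (6.75-fold) and 4035795 to 4035861 (6.16-fold). They were 62 to 105 bp wide. The next, at 18810723 to 18810844, had 5.39, the 10th 5.25 and the 11th 5.23. Inside the stretches the highest was at 57631031 to 57631090 (5.23-fold), followed by 44960379 to 44960595 (4.77-fold), which lay 812 bp from a codanin-1 peak.

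The highest −log10 q values of the GATA1 list were not at the peaks of highest fold alone. The peak at 10384473 to 10384537 led with a −log10 q of 9.01 at 4.54-fold, and one in stretch 1, at 24184100 to 24184160, followed with 7.91 at 3.23-fold. The latter was 1 of the 2 GATA1 peaks of that stretch, which lay 0.728 kb apart by midpoint next to the longest interval without peaks. On the far side of that interval 8 GATA1 peaks stood between 27731989 and 27739506, with folds of 1.85 to 2.51 and −log10 q of 3.05 to 5.55. No codanin-1 peak came closer to them than 687729 bp. These 8 and the site at 36066510 to 36066750 were the 9 GATA1 peaks of the chromosome under a fold of 3, singled out after their values were seen.

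Windows of 1 Mb showed how far the runs set the local maxima. The window from 36000001 to 37000000 held 38 GATA1 and 25 codanin-1 peaks, the most of the chromosome in both lists, and 2 and 10 outside the runs. The next GATA1 window, from 37000001 to 38000000, held 22, of which 1 was outside the runs, and the one at the short-arm end held 12. For codanin-1 the window from 4000001 to 5000000 followed with 20 peaks, and those from 3000001 to 4000000 and from 48000001 to 49000000 with 19 each. The chromosome had a median of 9.5 codanin-1 and 3 GATA1 peaks per window. Over its whole extent it held 9.78 codanin-1 and 4.38 GATA1 peaks per Mb, against 4.65 and 1.67 over all nuclear chromosomes. GATA1 peaks outnumbered codanin-1 peaks in 5 of 60 windows. Across those windows Spearman's rho between the lists was 0.61 and Pearson's r 0.56, and without the runs 0.60 and 0.56, as a description, since the windows come from the same 2 libraries.

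Against the other chromosomes, chromosome 19 was densely filled in both lists. It stood at rank 3 of 24 nuclear chromosomes for codanin-1 (9.78 peaks per Mb), after chromosomes 22 (23.2) and 1 (10.2). For GATA1 it stood at rank 2 (4.38 per Mb), after chromosome 22 (18.6) and close to chromosome 21 (4.32). It carried 4.02% of the codanin-1 and 5.02% of the GATA1 list, an odds ratio of 0.79 (0.682 to 0.926, Fisher's exact test, adjusted p = 0.0054 over 25 chromosomes). Of all 25 chromosomes 64.0% passed this test, so passing it does not set chromosome 19 apart. Without the 2 runs of chromosome 19 the odds ratio was 0.98 (0.826 to 1.16, Fisher's exact test, adjusted p = 0.80).

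Sharing on chromosome 19 was not high for the genome. Of its codanin-1 peaks 29 of 578 overlapped a GATA1 peak (5.02%, 3.39 to 7.13), against 6.67% elsewhere, with an odds ratio of 0.74 (0.488 to 1.08, Fisher's exact test, adjusted p = 0.16, where 70.8% of chromosomes passed). Counted within 1 kb in place of overlap, the codanin-1 odds ratio was 0.66 (0.467 to 0.906, Fisher's exact test, adjusted p = 0.011) and passed the threshold. Of its GATA1 peaks 36 of 259 overlapped (13.9%, 9.93 to 18.7), against 20.5% elsewhere, with an odds ratio of 0.62 (0.424 to 0.899, Fisher's exact test, adjusted p = 0.014, where 60.0% passed). By these shares of all peaks, chromosome 19 stood at rank 9 of 24 nuclear chromosomes for codanin-1 and at rank 10 for GATA1. The lower GATA1 share depended on what was left out. Chromosomes 9, 22, Y and M were left out in 1 alternative, which kept the runs of chromosome 19. The odds ratios were then 1.30 (0.851 to 1.91) for codanin-1 and 1.03 (0.696 to 1.50) for GATA1. With all runs of the genome left out, chromosome 19 kept 12 overlapping peaks among 554 for codanin-1 (2.17%) and 12 among 202 for GATA1 (5.94%). By these shares it stood at rank 16 of 24 nuclear chromosomes for codanin-1 and at rank 21 for GATA1. The odds ratios against the other chromosomes were then 0.77 (0.391 to 1.37, Fisher's exact test, adjusted p = 0.67) and 0.54 (0.274 to 0.986, Fisher's exact test, adjusted p = 0.13).

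**Figure D5:**
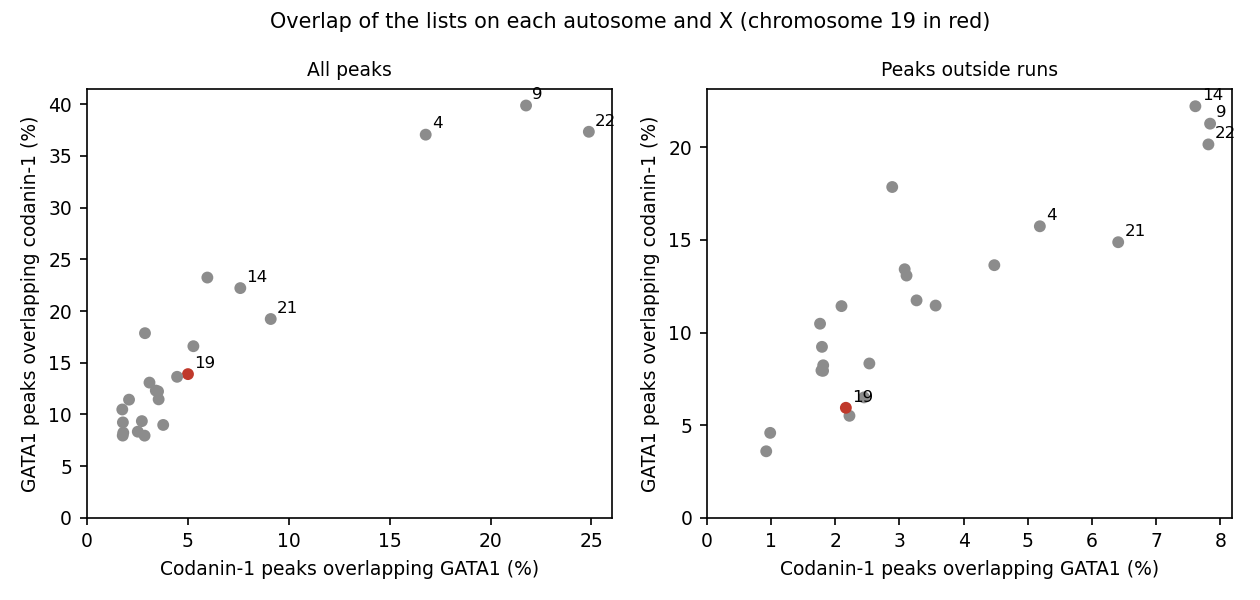
Share of codanin-1 peaks that overlap a GATA1 peak (x axes, %) against the share of GATA1 peaks that overlap a codanin-1 peak (y axes, %), 1 point per autosome and chromosome X, for all peaks (left) and for peaks outside runs (right). Chromosome 19, in red, stands at 5.02% and 13.9% with all peaks and at 2.17% and 5.94% outside runs.

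In width and enrichment the chromosome was like the rest of the lists. The median codanin-1 width was 232.5 bp against 219 bp elsewhere, and the median fold 3.97 in both. The median GATA1 width was 156 bp against 168 bp, and the median fold 4.27 against 4.18. No codanin-1 peak of chromosome 19 reached a −log10 q of 5, and 11 GATA1 peaks did. The matching counts for the other chromosomes are not given here, so these numbers cannot show whether chromosome 19 differs from them. Because depth is unknown, they do not compare the lists with each other either.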

How the data were processed

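ChIP-seq of K562 cells gave 1 peak list for codanin-1 and 1 for GATA1. BWA, MACS2 and hg19 are named per the submitters' processing notes. Versions, roles, background library, calling threshold, duplicate filters and pooling were not given in the sources used here. Both files have 9 columns without a header. The fold enrichment is a ratio of library over the caller's background, and the remaining columns used are the −log10 p-value and −log10 q-value, all as deposited by the authors. No read counts are given, so depth is unknown, and folds were compared only within a list.

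Peaks on chromosome 19 were taken without a filter and placed by midpoint, and the extent ended at the last peak of either list. Densities carry 95% exact Poisson intervals and shares exact binomial (Clopper-Pearson) ones. Density ratios were tested by an exact binomial test, counts by Fisher's exact test, all two-sided. Benjamini-Hochberg adjustment covered the 5 stretch comparisons, or all chromosomes. Neighbouring peaks are not independent, so p-values describe these lists only. Named positions are the 10 peaks of highest fold, the 5 widest and the 5 of highest −log10 q in each list, the 5 of highest fold in the stretches, and overlapping codanin-1 peaks by fold (10 of the chromosome, 10 of the stretches), and the 3 windows of 1 Mb with most peaks, given in part. The other shared sites outside the runs were named after their values were seen. Region, stretches and comparisons were chosen with earlier results of these data known. Coordinates are hg19, written from 1. No genome of that build was used, so no sequence, gene or motif is given. The statistics were tested on simulated data with known answers. Density and share counts there were drawn independently, unlike the clustered peaks of these lists, so the effect of clustering was not tested. Python 3.11.15, numpy 2.4.6, scipy 1.17.1 and pandas 2.3.3 were used.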

Additional observations from a re-analysis of the deposited data

Results flagged for a closer look

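The share of chromosome 19 peaks inside the zinc-finger stretches differed between the codanin-1 and GATA1 lists, by a test of that difference, with an odds ratio of 0.47 (0.330 to 0.681, Fisher's exact test, p = 2.8e-05). The difference rested on 2 runs of peaks of 50.9 and 33.7 kb in stretch 2, without which the odds ratio was 1.42 (0.816 to 2.56).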

How the results depend on the processing

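The alternatives that leave out runs were chosen after seeing the data. The runs of chromosome 19 are dense and lie in the stretches, so leaving them out could only lower the density ratios. The GATA1 density ratio of 1.52 reversed without the runs (0.38 with runs joined at 10 or 5 kb, 0.36 at 20 kb), without stretch 2 (0.38), without the runs and stretch 1 (0.57) and, not past the threshold, with peaks within 1 kb merged (0.69). It was 1.68 at a −log10 q of at least 2 and 1.04 at a fold of at least 4, neither past the threshold, and 4.17 by covered length. The codanin-1 ratio of 0.72 was 1.023 without stretch 1, not past the threshold, and 0.93 by covered length, and stayed below 1 and past the threshold under the other alternatives with a test. The stretch share odds ratio of 0.47 was 1.42 without the runs, 0.99 after merging and 0.22 by covered length.

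The codanin-1 overlap odds ratio of 16.7 between stretches and rest was 1.597 at a fold of at least 4 and 3.53 without the runs, and the GATA1 one of 12.6 was 3.56 at a −log10 q of at least 2 and 1.42 at a fold of at least 4, none of them past the threshold. The odds ratio of overlap on chromosome 19 against the other chromosomes moved for codanin-1 from 0.74 to 1.00 when 0.5 of both lengths had to overlap, 0.66 within 1 kb (adjusted p = 0.011 by Fisher's exact test, against 0.16), 1.30 without chromosomes 9, 22, Y and M, and 0.31 without the runs of chromosome 19 alone. Within 1 kb and without those runs it passed the threshold, which it otherwise did not. For GATA1 it moved from 0.62 to 0.78 at 0.5 of both lengths, 0.39 at a −log10 q of at least 2, 0.54 at a fold of at least 4, 1.03 without those 4 chromosomes and 0.54 without all runs. Without the runs of chromosome 19 alone it was 0.24, past the threshold. These runs were then left out on 1 side only. The chromosome's share of the lists, 0.79, was 0.72 at a −log10 q of at least 2 and 0.98 without its runs. Median widths moved to 117 bp (codanin-1, stretches) and 123 bp (codanin-1, rest) at a −log10 q of at least 2, to 257 bp (codanin-1, rest) and 152.5 bp (GATA1, rest) without peaks of the smallest width, and to 137 bp (GATA1, stretches) without the runs. Beyond what fewer peaks or the merging itself bring, the cause was not tested. Depth is unknown and limits each count. No paired analysis was possible because 1 library stands for each antibody, so none could be left out either.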
